A study of Homo sapiens with 3 samples.

Results

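The metallothioneins and the zinc response machinery around them were examined in cells labelled KG1, the name of a human cell line derived from acute myeloid leukemia (AML). The 10 genes were chosen by gene symbol among the 61806 genes of the count table: the metallothioneins MT1A, MT1E, MT1F, MT1G, MT1H, MT1M, MT1X and MT2A, their transcriptional regulator MTF1 and the zinc exporter SLC30A1. They were selected because the comparison of shUCP2 with control libraries was already known to show higher values for several of them. That comparison is therefore given for them as a description. No p-value of a member is printed, and nothing is read from the count of members called.

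Metallothioneins are small, cysteine-rich proteins that bind zinc, copper and cadmium through thiolate clusters. When free zinc rises, the zinc finger factor MTF1 binds metal response elements (MREs) in their promoters and in that of SLC30A1, which moves zinc out of the cytosol. Metallothionein genes are also known to respond to oxidative stress and to glucocorticoids, and most of the human genes lie side by side on chromosome 16.

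The study silenced UCP2, an uncoupling protein of the inner mitochondrial membrane, with short hairpin RNAs delivered by lentivirus. The data are 3 RNA sequencing libraries. KG1 cells carrying the control vector (KG1- NC), a scramble control per the study, gave 1 of them. KG1 cells labelled UCP2 knockdown, carrying the hairpins shUCP2#2 or shUCP2#3, gave 1 each. All 3 derive from virus-infected cells that were selected for the marker after infection, by flow cytometry in the study's methods, and expanded in medium with serum, and none received added metal per the labels. Each hairpin and the control is thus 1 selected population with 1 library, and nothing in the labels describes separate cultures of any of them, so the spread of the pair of shUCP2 libraries mixes hairpin, culture and library.

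The libraries held 18375090 counts in the control, 16475165 in shUCP2#2 and 17562153 in shUCP2#3. UCP2 had 651, 608 and 649 counts, or 35.5, 37.1 and 36.8 CPM (counts scaled to library size). Its edgeR log2 fold change was 0.06 (SE 0.15, Benjamini-Hochberg adjusted p = 0.888), so the UCP2 transcript was not lower in the libraries labelled shUCP2. The paper, by contrast, reports a strong loss of UCP2 protein (immunoblot) and transcript (qPCR) with both hairpins in its KG-1 and THP-1 transfectants. The reason for the difference was not tested. Of 10 myeloid progenitor markers 3 exceeded 10 CPM in each library, with MPO, HLA-DRA and CD38 at 0 throughout and CD34 at 0, 10 and 0 counts, whereas 9 of 10 erythroid markers exceeded 10 CPM in each. The erythroid markers summed to 4200.3 CPM in the control, 3161 in shUCP2#2 and 3152 in shUCP2#3, so that they moved with the groups, and their part in the results was not tested. The highest of them were HBG2, a fetal globin, at 1349, 928 and 935 CPM, and TFRC, the transferrin receptor, at 1943, 1505 and 1539 CPM. KG1 is known as a CD34-positive myeloid line, so the CD34 and erythroid levels go against the label, while CD33, SPI1 and KIT were present. The name KG1 is used below only as the labels give it. Of 14 fibroblast markers 8 exceeded 10 CPM in shUCP2#2, against 1 in the control and 2 in shUCP2#3. Their summed level was 283, 484 and 228 CPM in the control, shUCP2#2 and shUCP2#3, and COL1A1 had 0, 507 and 0 counts. The library labelled shUCP2#2 therefore stood apart, and member values are given for each hairpin separately.

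The promoters of the members are shown first because the MRE is the element that ties the family to zinc. Windows from 250 bases before to 50 bases after the gene start, taken from RefSeq on GRCh38.p14, were matched for 5 of the 10 members (MT2A, MT1H, MT1X, SLC30A1 and MTF1). MT1A, MT1E, MT1F, MT1G and MT1M had no window in the table. The 250 bases before the start are printed 5′ to 3′ on the gene's strand, with matches to the MRE core (TGCACNC or TGCGCNC, either strand) in capitals. The stretches are chr16:56608334-56608583 (plus strand) for MT2A, chr16:56669564-56669813 (plus) for MT1H, chr16:56682220-56682469 (plus) for MT1X and chr1:211579162-211579411 (minus) for SLC30A1.
MT2A: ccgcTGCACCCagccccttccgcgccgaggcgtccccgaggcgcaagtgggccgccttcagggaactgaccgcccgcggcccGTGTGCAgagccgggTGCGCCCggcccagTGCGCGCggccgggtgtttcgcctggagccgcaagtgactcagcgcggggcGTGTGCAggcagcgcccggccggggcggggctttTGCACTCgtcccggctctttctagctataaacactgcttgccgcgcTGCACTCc
MT1H: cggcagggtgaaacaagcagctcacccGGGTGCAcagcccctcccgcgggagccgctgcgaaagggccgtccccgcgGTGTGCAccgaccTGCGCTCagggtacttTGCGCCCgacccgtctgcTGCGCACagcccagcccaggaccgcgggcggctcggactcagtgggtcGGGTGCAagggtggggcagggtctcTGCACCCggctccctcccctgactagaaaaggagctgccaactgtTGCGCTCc
MT1X: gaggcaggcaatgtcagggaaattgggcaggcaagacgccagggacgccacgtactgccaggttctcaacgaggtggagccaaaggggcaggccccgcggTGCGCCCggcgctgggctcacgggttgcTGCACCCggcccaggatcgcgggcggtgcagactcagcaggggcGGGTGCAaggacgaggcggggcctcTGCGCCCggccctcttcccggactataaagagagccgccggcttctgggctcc
SLC30A1: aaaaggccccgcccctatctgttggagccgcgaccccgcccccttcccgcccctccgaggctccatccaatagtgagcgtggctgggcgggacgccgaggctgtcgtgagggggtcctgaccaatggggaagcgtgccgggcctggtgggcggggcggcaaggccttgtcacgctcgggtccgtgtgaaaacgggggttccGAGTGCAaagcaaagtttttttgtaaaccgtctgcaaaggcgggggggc

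In the whole windows the MRE core matched 8 times for MT2A, 8 times for MT1H, 4 times for MT1X, 2 times for SLC30A1 and 0 times for MTF1. Among all 35116 windows of the same length in the table, 29.6% held at least 1 match, 8.60% at least 2, 0.601% at least 4 and 0.0199% at least 8. Only 7 windows reached 8 matches, and MT2A and MT1H were both among them. For MT2A, 5 matches lay on the gene's strand and 3 on the other. MT1H and MT1X carried matches at the same distances from the start, at positions -78 to -72 on the other strand and -53 to -47 on the gene's strand, where -1 is the base before the start. SLC30A1 had its matches at -49 and +25, both on the other strand. A core of the antioxidant response element, the site of NRF2-type factors (TGACNNNGC, either strand), occurred 1 time each in the windows of MT2A, MT1X and SLC30A1, and in 13.3% of all windows. A TATA box (TATAAA, either strand) began at -29 in MT2A and at -30 in MT1X, and 11.5% of all windows held one. These matches describe letters in the reference sequence and no binding was measured.

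**Figure D1:**
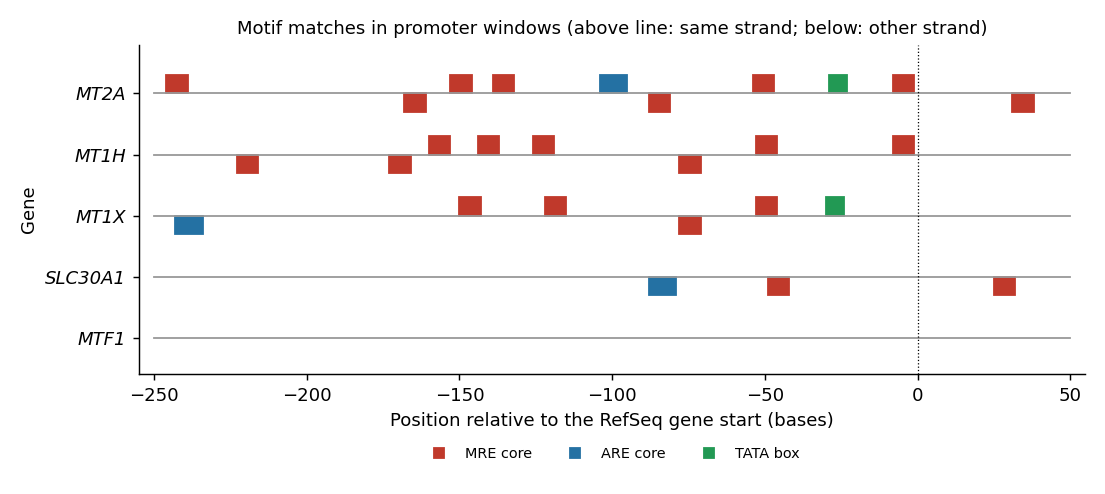
Positions of MRE, antioxidant response element and TATA matches along the 5 promoter windows, as distance in bases from the gene start, with the strand of each match. MT2A and MT1H hold 8 MRE core matches each, MT1X 4, SLC30A1 2 and MTF1 0.

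In the labelled control, MT2A and MT1X made up nearly the whole metallothionein signal, and both were higher in each shUCP2 library. MT2A, the most widely expressed human metallothionein (chr16:56608584-56609497, plus strand, GRCh38), had 1992 counts in the control, 3289 in shUCP2#2 and 2944 in shUCP2#3. These correspond to 109, 201 and 167 CPM, so both shUCP2 libraries lay above the control. The ratio to control was 1.85 in shUCP2#2 (95% counting interval 1.75 to 1.96) and 1.54 in shUCP2#3 (1.45 to 1.63). The shUCP2 mean was 184 ± 23.9 CPM (SD, n = 2), and the fitted log2 fold change was 0.76 (SE 0.10). In bulk RNA a change in the number of cells that express a gene and a change in RNA per cell cannot be told apart. The intervals, from an exact conditional binomial test on the counts, cover counting error only.

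MT1X is a metal-inducible isoform at the far end of the cluster (chr16:56682470-56684196, plus strand). Its 1514 counts in the control compare with 2511 in shUCP2#2 and 2441 in shUCP2#3, or 82.5, 153 and 138 CPM. Its ratio to control was 1.86 (1.74 to 1.98) in shUCP2#2 and 1.68 (1.57 to 1.79) in shUCP2#3, and the fitted log2 fold change was 0.82 (SE 0.11). As for MT2A, the control library was the lowest and shUCP2#2 the highest. An unnamed gene on the same strand (ENSG00000259827) overlaps MT1X and had 0 counts in every library.

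MT1G was expressed at a far lower level than MT2A. This isoform is the only metallothionein among the members on the minus strand (chr16:56666730-56668065). It had 65, 112 and 136 counts, or 3.54 CPM in the control, 6.84 in shUCP2#2 and 7.71 in shUCP2#3. The ratio to control was 1.93 (1.41 to 2.66) and 2.18 (1.61 to 2.97), so here shUCP2#3 was the higher of the pair, and the fitted log2 fold change was 1.04 (SE 0.36).

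MT1H, the neighbour of MT1G (chr16:56669814-56671129, plus strand), was at 0 counts in the control, with 15 counts in shUCP2#2 and 28 in shUCP2#3. Against a floor of 3 counts in the control library, its level was at least 5.60-fold higher in shUCP2#2 and at least 9.71-fold higher in shUCP2#3. These bounds take the 15 and 28 counts as they stand, without their counting error. MT1H thus had reads in both shUCP2 libraries and none in the control, and at 0.915 and 1.59 CPM was a small part of the metallothionein signal.

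MT1F (chr16:56657731-56660698, plus strand) followed another pattern. It had 8 counts in the control, 37 in shUCP2#2 and 13 in shUCP2#3, or 0.436, 2.26 and 0.737 CPM. The ratio to control was 5.18 (2.37 to 12.9) in shUCP2#2 and 1.69 (0.649 to 4.70) in shUCP2#3, and the latter interval includes 1. The high value was thus that of shUCP2#2 alone, and the fitted log2 fold change of 1.76 had an SE of 1.08. MT1E (chr16:56625475-56627112, plus strand) had 3 counts in shUCP2#2 and 0 in the other libraries.

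MT1A (chr16:56638666-56640087) and MT1M (chr16:56632659-56633981), which lie between MT1E and MT1F, were at 0 counts in every library. A count of 0 allows a level of up to 0.164 CPM in the control, 0.183 in shUCP2#2 and 0.170 in shUCP2#3. The 8 genes span 75.6 kb, with the abundant MT2A and MT1X at its opposite ends and the genes of low or undetected level between them.

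MTF1, the zinc sensor that activates these genes (chr1:37809574-37859592, minus strand), did not share their pattern. It had 179 counts in the control, 133 in shUCP2#2 and 184 in shUCP2#3, or 9.76, 8.12 and 10.4 CPM. The control lay between the shUCP2 libraries. The ratio to control was 0.832 (0.660 to 1.05) and 1.07 (0.866 to 1.32), and both intervals include 1. The fitted log2 fold change was -0.07 (SE 0.28). MTF1 is regulated largely through zinc binding and nuclear entry, which transcript counts do not measure.

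SLC30A1, the plasma membrane zinc exporter and an MTF1 target (chr1:211571568-211579161, minus strand), was higher in both shUCP2 libraries by a smaller factor than the abundant metallothioneins. It had 5617, 6225 and 6950 counts, or 306, 379.9 and 394 CPM. The ratio to control was 1.24 (1.20 to 1.29) in shUCP2#2 and 1.29 (1.24 to 1.33) in shUCP2#3. The shUCP2 mean was 387 ± 10.0 CPM (SD, n = 2), and the fitted log2 fold change was 0.34 (SE 0.09). With the most counts of any member, SLC30A1 has the narrowest intervals.

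**Figure D2:**
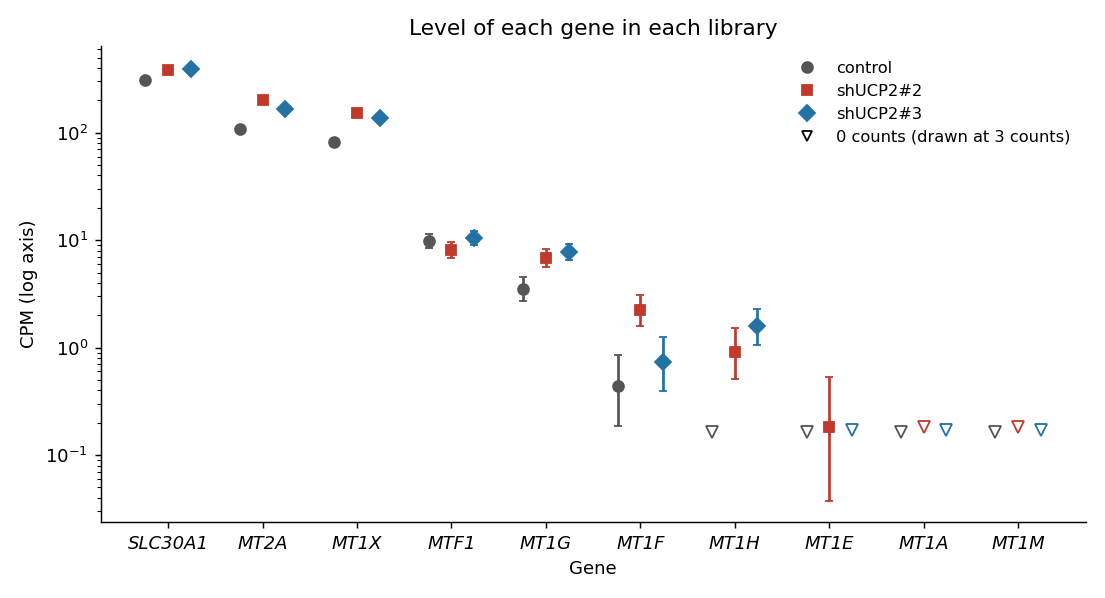
Level of each member in the control, shUCP2#2 and shUCP2#3 libraries in CPM, with 95% counting intervals. MT2A, MT1X, MT1G and SLC30A1 lie above the control in both shUCP2 libraries, MTF1 lies on either side of it, and MT1A and MT1M are at 0 counts throughout.

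Of the 10 members, 7 passed the filter on low counts in edgeR (MT1G, MT1H, MT1X, MT2A, MT1F, MTF1 and SLC30A1), and MT1A, MT1E and MT1M did not. The members called higher numbered 5 (MT1G, MT1H, MT1X, MT2A and SLC30A1) and those called lower 0. Over all 15232 genes tested at an adjusted p of 0.05, 6.25% were called higher, 6.11% lower and 12.4% in either direction. MT1H passed the filter only through the shUCP2 libraries. Because this contrast chose the members, nothing is read from their count.

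**Figure D3:**
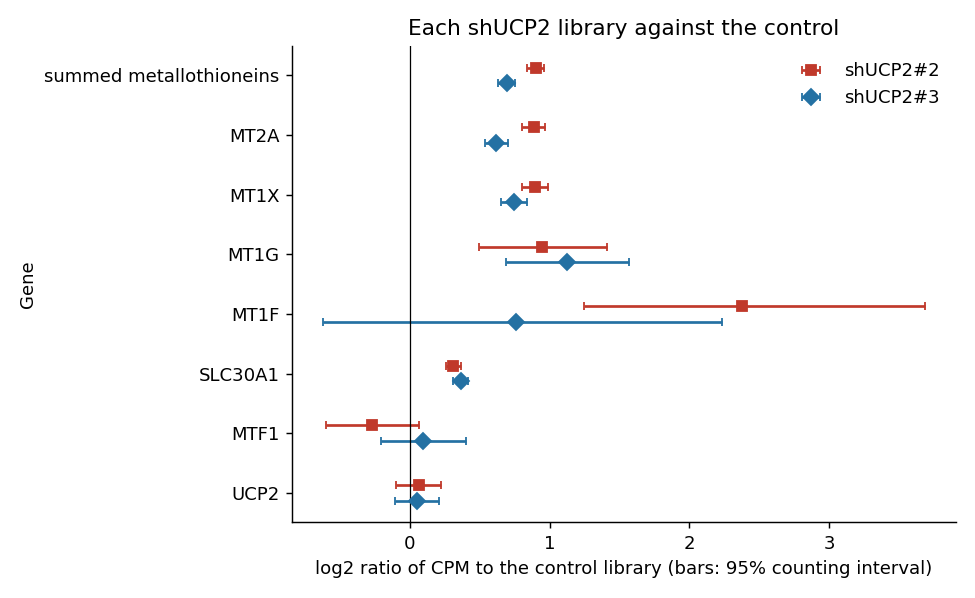
Ratio to control of each member with counts in the control, for shUCP2#2 and shUCP2#3 separately, on a log2 axis with 95% counting intervals. MT2A, MT1X, MT1G and SLC30A1 have both intervals above 1, MT1F has 1 of 2, and MTF1 has neither.

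The shUCP2 libraries did not hold the same metallothionein levels. shUCP2#3 was lower than shUCP2#2 for MT2A, at a ratio of 0.832 (0.791 to 0.874), for MT1X at 0.903 (0.854 to 0.955) and for MT1F at 0.326 (0.159 to 0.628). It was higher for MTF1 at 1.29 (1.02 to 1.62) and for SLC30A1 at 1.04 (1.00 to 1.07), the latter with a lower bound just above 1. For MT1G the ratio was 1.13 (0.872 to 1.46) and for MT1H 1.73 (0.895 to 3.49), and those intervals include 1. Counting intervals of this ratio left out 1 for 5 of the 7 members that passed the filter and for 36.8% of all genes tested. The intervals cover counting error only and there is no replicate of either hairpin.

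Added over the 8 genes, the metallothionein transcripts amounted to 3579 counts in the control, 5967 in shUCP2#2 and 5562 in shUCP2#3. This is 195 CPM (189 to 202), 364 CPM (355 to 374) and 315 CPM (307 to 324). The summed level was 1.87 times the control (1.79 to 1.95) in shUCP2#2 and 1.62 times (1.55 to 1.69) in shUCP2#3. The mean of the shUCP2 libraries was 339.8 ± 34.5 CPM (SD, n = 2). The excess in the shUCP2 libraries was thus carried by MT2A and MT1X, whose counts dominate the sum.

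The makeup of the pool moved little beside its size. MT2A supplied 55.7% of the metallothionein counts in the control, 55.1% in shUCP2#2 and 52.9% in shUCP2#3, and MT1X supplied 42.3%, 42.1% and 43.9%. Together they held 98.0%, 97.2% and 96.8%. The ratio of MT2A to MT1X counts was 1.32 (1.23 to 1.41), 1.31 (1.24 to 1.38) and 1.21 (1.14 to 1.27), so the control and shUCP2#2 had nearly the same ratio and shUCP2#3 the lowest. MT1G held 1.82%, 1.88% and 2.45% of the counts. MT1H went from 0% to 0.251% in shUCP2#2 and 0.503% in shUCP2#3, and MT1F was at 0.224%, 0.620% and 0.234%. Reads were detected for 4 of the 8 genes in the control, 6 in shUCP2#2 and 5 in shUCP2#3.

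**Figure D4:**
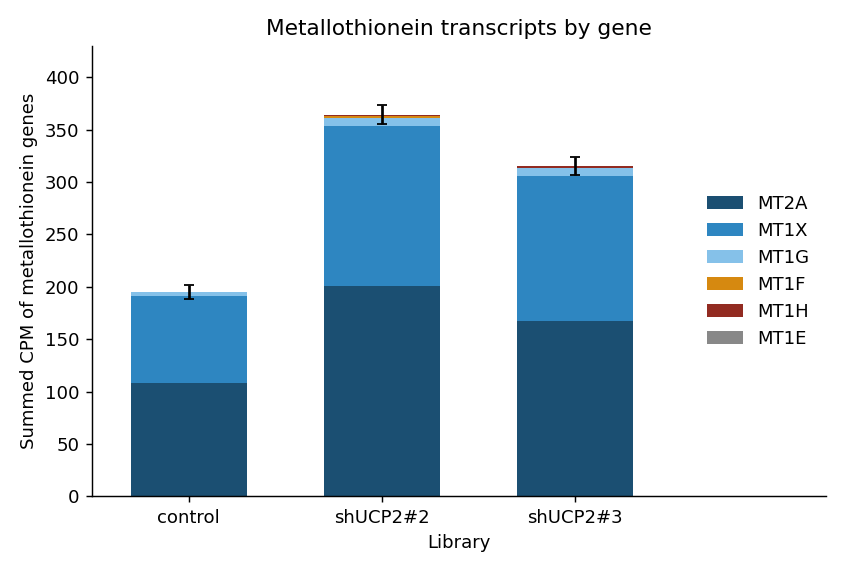
Summed level of the 8 metallothioneins in CPM, divided by gene, in each library. The sums are 195, 364 and 315 CPM, and MT2A and MT1X together hold between 96.8% and 98.0% of the counts.

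Levels of different genes were compared in FPKM, the depth-scaled fragment count per kilobase of the deposited exonic gene length. For MT2A and MT1X that length, 914 and 1727 bases, is the whole span of the gene and may exceed that of a transcript. The order and ranks of genes below depend on these lengths, which the counting intervals do not cover. In the control the order was MT2A at 118.61 FPKM, SLC30A1 at 51.87, MT1X at 47.71, MT1G at 4.71, MTF1 at 1.22 and MT1F at 0.24. The counting intervals of SLC30A1 (50.5 to 53.2) and MT1X (45.3 to 50.2) did not overlap. In both shUCP2 libraries MT1X passed SLC30A1, at 88.25 against 64.12 FPKM in shUCP2#2 and 80.48 against 67.15 in shUCP2#3. MT2A stayed first at 218.42 and 183.41 FPKM, which placed it 157th and 182nd of the 15232 tested genes, from 302nd in the control. MT1G followed SLC30A1 at 9.05 and 10.31 FPKM. The low end was not resolved in shUCP2#2, where MT1H (1.26 FPKM), MT1F (1.21) and MTF1 (1.01) had overlapping counting intervals. In shUCP2#3, MT1H (2.21 FPKM) and MTF1 (1.31) overlapped only narrowly, and MT1F (0.40) lay below both.

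Metallothionein genes are close paralogs, so reads from their coding parts may be shared or lost in counting. In GENCODE 29 transcripts, 18.3% of the distinct 50-base stretches of MT1X occurred in another gene, as did 16.5% for MT1G, 15.8% for MT1H, 9.87% for MT1M, 7.10% for MT1E, 5.76% for MT1A, 3.02% for MT2A and 1.22% for MT1F. By these shares the values of MT1X, MT1G and MT1H are the more uncertain ones as single genes. For MT1X the share includes stretches of its overlapping gene, which is not a paralog copy elsewhere. The shares run over all distinct stretches of a gene and were not weighted by the transcripts expressed, so a low share does not show that reads were unique. Of stretches of 100 bases, 11.3% for MT1X (all shared with its overlapping gene) and 1.39% for MT1H occurred elsewhere. How the authors' counting treated such reads is not given in the sources used here.

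Other metallothionein genes and pseudogenes added little. MT2P1, a processed copy of MT2A, had 0 counts in the control, 27 in shUCP2#2 and 6 in shUCP2#3. MT4, known for its expression in squamous epithelium, had 1, 10 and 0. Both had most of their counts in the same library as MT1F and MT1E. In that library the fibroblast markers other than FN1 summed to 205 CPM, against 16.2 in the control and 21.1 in shUCP2#3. The part of these markers in the metallothionein values was not tested. Between the control and shUCP2#3 the list was mixed, with 5 and 6 of the 14 markers at 0 counts, PDGFRB at 4 and 20 counts, COL6A3 at 153 and 227, and FN1 at 4903 and 3642.

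Genes that handle the same metals were compared in lists. The SLC30 family moves zinc out of the cytosol. Of 9 exporters other than SLC30A1, 7 were tested and 0 passed the edgeR test, while 1 had an unadjusted p under 0.05 and DESeq2 called 0. Their median log2 fold change was 0.07, beside 0.02 over all genes tested, of which 12.4% passed the edgeR test. The most abundant were SLC30A5 and SLC30A6, which load zinc into the early secretory pathway. SLC30A5 had 2171, 1892 and 1997 counts (log2 fold change -0.05) and SLC30A6 had 1634, 1465 and 1728 (log2 fold change 0.07). Neither passed the test.

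The SLC39 family brings zinc into the cytosol, and its members went both ways. Of 14 importers 11 were tested, 2 rose and 2 fell, with a median log2 fold change of -0.08. Among all genes tested 6.25% rose and 6.11% fell, and counts of 2 in so short a list are not read as a result about it. SLC39A8, a plasma membrane importer of zinc, manganese and cadmium, had 1076, 1336 and 1643 counts and rose by 0.57 on the log2 scale (SE 0.12, edgeR adjusted p = 8.63e-05). SLC39A14, which carries zinc, iron and manganese, had 1133, 1250 and 1418 counts and rose by 0.34 (SE 0.12, edgeR adjusted p = 0.0446). SLC39A14 was called in 2 of the 8 alternatives run. Both risers transport more than zinc. SLC39A7, which releases zinc from the endoplasmic reticulum, had 2444, 1681 and 1786 counts and fell by 0.39 (SE 0.10, edgeR adjusted p = 0.00299). SLC39A11, an intracellular family member, had 719, 456 and 447 counts and fell by 0.56 (SE 0.16, edgeR adjusted p = 0.00567). SLC39A10, the next most abundant importer, had 1523, 1412 and 1497 counts and a log2 fold change of 0.04. Over both families without SLC30A1, 4 of 18 tested genes were called and 14 were not, beside 12.4% called among all genes tested.

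Metallothioneins also bind copper, and 2 of 11 tested copper genes rose and 0 fell, with a median log2 fold change of -0.10. Over all genes tested 6.25% rose, and a count of 2 in so short a list is not read as a result about it. SLC31A1, the high-affinity copper importer, had 2428, 3082 and 3604 counts and rose by 0.57 (SE 0.10, edgeR adjusted p = 3.36e-07). ATP7A, the copper-exporting ATPase, had 946, 1116 and 1263 counts and rose by 0.44 (SE 0.13, edgeR adjusted p = 0.0105). SOD1, the copper and zinc superoxide dismutase and the most abundant gene of this list, had 5126, 4206 and 4265 counts with a log2 fold change of -0.17 (edgeR adjusted p = 0.235).

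Metal and oxidant exposure is known to raise NRF2 targets and heat shock genes as well as metallothioneins. Of 14 such genes, all tested, 4 rose, 3 fell and 7 did not pass, with a median log2 fold change of -0.08. Over all genes tested 6.25% rose and 6.11% fell. SLC7A11, the cystine importer that supplies cysteine, had 539, 1553 and 1853 counts and rose by 1.77 (SE 0.13, edgeR adjusted p = 8.37e-37). GCLC, the catalytic subunit of the enzyme that begins glutathione synthesis, had 854, 1035 and 1321 counts and rose by 0.57 (SE 0.13, edgeR adjusted p = 0.000522). TXNRD1, thioredoxin reductase, had 5751, 6893 and 7570 counts and rose by 0.44 (SE 0.09, edgeR adjusted p = 1.35e-05). The fourth was GCLM, the modifier subunit that pairs with GCLC. Of the genes that fell, HSPH1, a chaperone of the HSP110 class, had 3127, 1607 and 1690 counts and fell by 0.81 (SE 0.10, edgeR adjusted p = 6.49e-14). HSPA1A, inducible HSP70, had 9601, 7740 and 6774 counts and fell by 0.29 (SE 0.08, edgeR adjusted p = 0.00562). Its near-identical copy HSPA1B also fell, and reads may be split between the pair. HMOX1, the heme oxygenase gene often induced by metals, had only 9, 12 and 2 counts.

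Glucocorticoids raise metallothioneins in many cells. Of 10 listed genes, all tested, 2 rose and 0 fell, with a median log2 fold change of 0.32, beside 6.25% that rose among all genes tested. The count of 2 is not read as a result about the list. KLF9, a transcription factor, had 954, 1029 and 1379 counts and rose by 0.44 (SE 0.13, edgeR adjusted p = 0.00980). NR3C1, the glucocorticoid receptor itself and not an induced target, had 1151, 1311 and 1436 counts and rose by 0.36 (SE 0.12, edgeR adjusted p = 0.0290). FKBP5, a standard target of the receptor and the most abundant gene of the list, had 4281, 3379 and 4019 counts with a log2 fold change of -0.10. TSC22D3, another standard target, had 103, 166 and 158 counts with a log2 fold change of 0.76 (edgeR adjusted p = 0.0909), and is named after its values were seen.

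The genes beside the metallothionein cluster on chromosome 16 were listed to set the cluster against its surroundings. Of 10 neighbours 7 were tested, 0 rose and 2 fell, with a median log2 fold change of -0.12. Among all genes tested 6.25% rose and 6.11% fell, and the count of 2 is not read as a result about the list. NUDT21, a subunit of the pre-mRNA cleavage factor, had 2791, 1953 and 2164 counts and fell by 0.33 (SE 0.10, edgeR adjusted p = 0.0108). NUP93, a nuclear pore protein, had 1936, 1285 and 1469 counts and fell by 0.38 (SE 0.11, edgeR adjusted p = 0.00789). The other 5 tested did not pass, among them HERPUD1, BBS2 and GNAO1 with log2 fold changes of 0.32, 0.45 and 1.17, named after their values were seen. An unadjusted p under 0.05 was found for 5 of the 7, and DESeq2 called 0.

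Over the 70 listed genes, 60 were tested and 17 were called, which is 28.3% against 12.4% of all genes. All 17 had the same sign in both hairpin libraries, as did 1852 of the 1883 genes called over the whole table. Both hairpin libraries are set against the same control and took part in the call. The lists were written with earlier results of these data known, so the share is a description. Tests with 1 control library and 1 residual degree of freedom rest on the spread that edgeR borrows across genes: DESeq2 called 7 of the 17 (SLC39A8, SLC31A1, SLC7A11, GCLC, GCLM, TXNRD1 and HSPH1), and limma on log2(FPKM + 1) called none of the listed genes, with 14 of 53 tested at an unadjusted p under 0.05. Without the abundance trend in edgeR the count was 0, with 8 of 60 tested at an unadjusted p under 0.05.

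**Figure D5:**
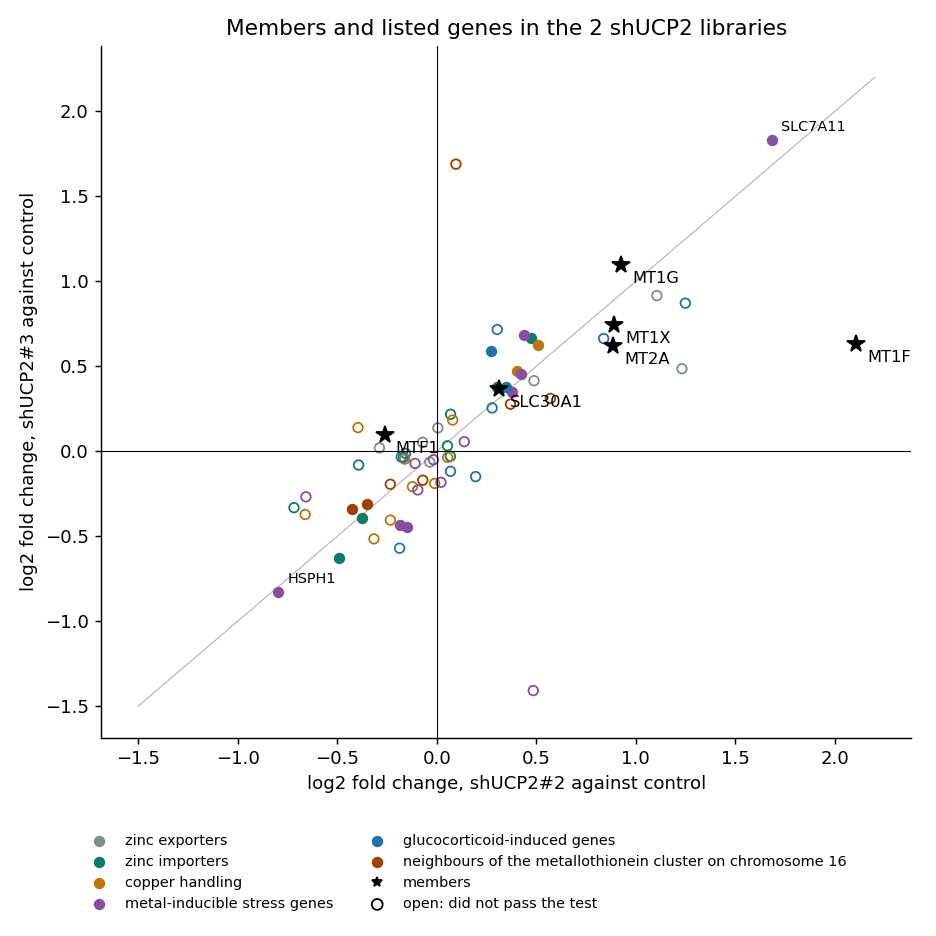
Log2 fold change against control in shUCP2#2 (x axis) and shUCP2#3 (y axis), from log2 CPM with a prior count of 2, for members (stars) and listed genes (filled circles passed the edgeR test, open circles did not; the line marks equal change). MT2A, MT1X, MT1G and SLC30A1 lie in the upper right, MT1F far to the right, and MTF1 left of 0 on the x axis and slightly above it on the y axis.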

How the data were processed

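RNA from KG1 cells was sequenced in 3 libraries. Per the labels, the authors' processing named cutadapt 1.9.1, HISAT2 2.2.1, HTSeq 0.6.1, Cufflinks 2.2.1, SAMtools 0.1.19 and DESeq2 on GRCh38. Annotation release, read length and strand setting: not given in the sources used here. The extraction label speaks of DNA, while the molecule field says total RNA. The deposited table holds whole-number gene counts, and the FPKM values the authors deposited equal counts divided by exonic kilobases and by the library total. The deposited exonic gene lengths (base pairs) served that check.

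Genes passing filterByExpr (15232) were fitted with edgeR 4.0.16 (R 4.3.3; TMM, quasi-likelihood, group as the single term) over all 3 libraries, with Benjamini-Hochberg adjustment and a threshold of 0.05. CPM uses TMM effective library sizes. The script was run on simulated counts drawn with the fitted spread and the same change in both hairpin libraries. Such a run checks the code and cannot show that this spread holds for these libraries. Alternatives were other scalings, filters, variance models, prior counts, DESeq2 1.42.0, and limma 3.58.1 on log2(FPKM + 1) and log2(FPKM + 0.1) with a mean FPKM of at least 1. Ratios of counts between libraries carry exact binomial 95% intervals.

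The members and gene lists were chosen with earlier results of these data known. Genes named were the 10 members, UCP2, each called zinc transporter, up to 4 called genes of each other list by fold change, the 2 most abundant genes of each list by mean CPM, and the 5 genes nearest in pattern to MT2A and to SLC30A1. GCLM, HSPA1B, HMOX1, TSC22D3, the other metallothionein genes and the markers were named beside these. Not every gene that this rule names is reported here. The edgeR p-values and SEs rest on a spread shared across genes of like abundance, which may be technical. A gene's own disagreement between the libraries carries little weight in them. COL1A1, with 0, 507 and 0 counts, had an edgeR adjusted p of 2.68e-41.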

Additional observations from a re-analysis of the deposited data

How the results depend on the processing

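The summed metallothionein level had a log2 fold change of 0.80, which was 0.85 without MT2A, 0.69 without shUCP2#2 and 0.90 without shUCP2#3, and stayed within the hairpin SD under other scalings and with FPKM. The log2 fold change ranged over the alternatives from 0.62 to 0.88 for MT2A, 0.75 to 0.89 for MT1X, 0.94 to 1.12 for MT1G, 0.31 to 0.36 for SLC30A1, 0.75 to 2.35 for MT1F and -0.27 to 0.10 for MTF1, whose sign turns with the hairpin left out. MT1H had 0 control counts, and its fitted value depends on the prior count. Over all genes 1883 were called, from 1564 to 1877 under other scalings and filters. DESeq2 called 623 and gave no adjusted p for 17449 of 25001 genes. edgeR without the abundance trend called 0 (1770 at an unadjusted p under 0.05), and limma called 2 on log2(FPKM + 1) and 1 on log2(FPKM + 0.1). Of the pathway list genes 17 were called, 16 or 17 under other scalings and filters, 7 by DESeq2, 0 by edgeR without the trend (8 at an unadjusted p under 0.05), and 0 by limma with either pseudocount (14 and 14). The main count thus rests on the spread shared across genes of like abundance. Without either shUCP2 library no residual degree of freedom is left, so no calls can be counted. No paired analysis was possible because the control and shUCP2 libraries share no replicate number.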

Other observations

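Genes whose pair of log2 fold changes lay nearest to that of MT2A were NDRG1, PPP1R26, PTPDC1, ZNF689 and KIF5A, over 8548 genes with a mean of at least 10 CPM. NDRG1, known to be induced by hypoxia and by metal chelation, had 2046 counts in the control, 3417 in shUCP2#2 and 3034 in shUCP2#3, at a distance of 0.02 log2 units from MT2A. Within 0.1 log2 units of MT2A lay 5 genes. Nearest to SLC30A1 were KPNA6, SCRN3, XIAP, MINDY2 and TMEM128, and 370 genes lay within 0.1 log2 units of it. The number of genes within that distance depends on the size of the change, and it is not read as a result about either gene. The likeness rests on 3 libraries.

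Among promoter windows of the listed genes, the MRE core occurred in 5 of 10 for the zinc exporters, 7 of 19 for the importers, 8 of 14 for the copper genes, 8 of 15 for the stress genes, 7 of 21 for the glucocorticoid genes and 2 of 12 for the cluster's neighbours. Over all 35116 windows, 29.6% held at least 1 match. A gene can have several windows, and the counts are not read as a result about the lists. None of these windows held more than 3 matches, against 8 in MT2A and MT1H.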
